A study of Mus musculus with 12 samples.

Results

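Among the 35976 rows of the deposited count table, 6 genes of the DNA methylation machinery were examined: the DNA methyltransferase genes Dnmt1, Dnmt3a, Dnmt3b and Dnmt3l, and the genes Uhrf1 and Uhrf2, whose proteins read methylated DNA. They were taken by gene name, and all 6 rows were found. Of these, 5 passed the filter on low counts and were tested, and Dnmt3l did not. The 12 RNA libraries came from female mouse primordial germ cells, the embryonic precursors of oocytes, taken at E14.5 and sorted by an Oct4-GFP reporter. The 3 Tet1 mutant groups, of 3 libraries each, were set against 3 wild-type libraries. HxD was homozygous for a catalytically dead Tet1 (Tet1HxD/HxD), KO was homozygous for a Tet1 knockout (Tet1-/-), V was homozygous for a Tet1 that stalls at 5-hydroxymethylcytosine (Tet1V/V), and WT was wild type at Tet1. All 4 groups carried the reporter used for sorting. Whether the 3 libraries of a genotype trace to different embryos is not stated. Each p-value therefore sets a difference against the spread of these libraries only, and that spread may be technical.

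When DNA is copied, the new strand carries no methyl groups. UHRF1 binds the half-methylated CpG sites left behind and ubiquitinates histone H3, which brings in DNMT1 to copy the pattern; this is called maintenance methylation. DNMT3A and DNMT3B set methylation on unmarked DNA, and DNMT3L, which has no catalytic activity, assists them in germ cells. Mouse primordial germ cells lose most of their methylation before the stage studied, and in females regain it only later, in growing oocytes. TET1 acts on the same mark from the other side, by oxidizing 5-methylcytosine.

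Total counts per library ranged from 18471158 to 29495313. Between 12568 genes (KO3) and 17614 genes (HxD3) had at least 1 count. HxD1 and KO3 stood apart: 43.7% and 45.7% of 2936 weakly expressed genes had no count there, followed by 27.1% in KO1, against 1.77% to 24.4% in the other 9 libraries, WT between 13.3% and 20.6%. Tet1 was at 227.0, 221.7 and 285.8 CPM (counts scaled to a common library size, the unit used throughout) in HxD, at 130.7, 158.3 and 80.8 CPM in KO, at 225.7, 197.0 and 192.0 CPM in V, and at 91.4, 180.1 and 215.0 CPM in WT. KO and WT overlapped, and counts over the whole gene do not check the knockout label, since the sources used here do not say which part is deleted. All 12 germ cell markers examined had counts in every library, with a summed level of 3792 to 4558 CPM over the 12 libraries.

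Uhrf1 was lower in the Tet1 mutants, at about the same fraction of the WT level in each, and was the 1 member that passed the test in any comparison. It was at 52.1, 57.5 and 45.6 CPM in the HxD libraries, at 42.7, 42.2 and 60.4 CPM in KO and at 44.7, 56.2 and 54.6 CPM in V, against 102.6, 113.3 and 78.2 CPM in WT. All 9 mutant libraries lay below all 3 WT libraries, with KO3 the highest mutant and WT3 the lowest wild type. In bulk libraries, fewer cells of one kind and less RNA per cell cannot be told apart. Over all genes tested, 2.05% had every mutant library below every WT library; for single mutants the share below WT was 5.77% in HxD, 8.36% in KO and 7.48% in V. In KO, Uhrf1 averaged 48.5 ± 10.4 CPM, against 98.1 ± 17.99 CPM in WT (SD, n = 3 each), a fitted level of 49.4% of WT. It fell by 1.02 on the log2 scale (SE 0.23, 95% interval -1.48 to -0.55, edgeR adjusted p = 0.0223), and ranked 80th by p among the 16166 genes tested. Called here means an adjusted p under 0.05. Of the 5 members tested, 1 was called lower and 0 higher in KO, where 0.495% of all genes tested were called lower and 0.724% higher (1.22% in either direction).

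**Figure D1:**
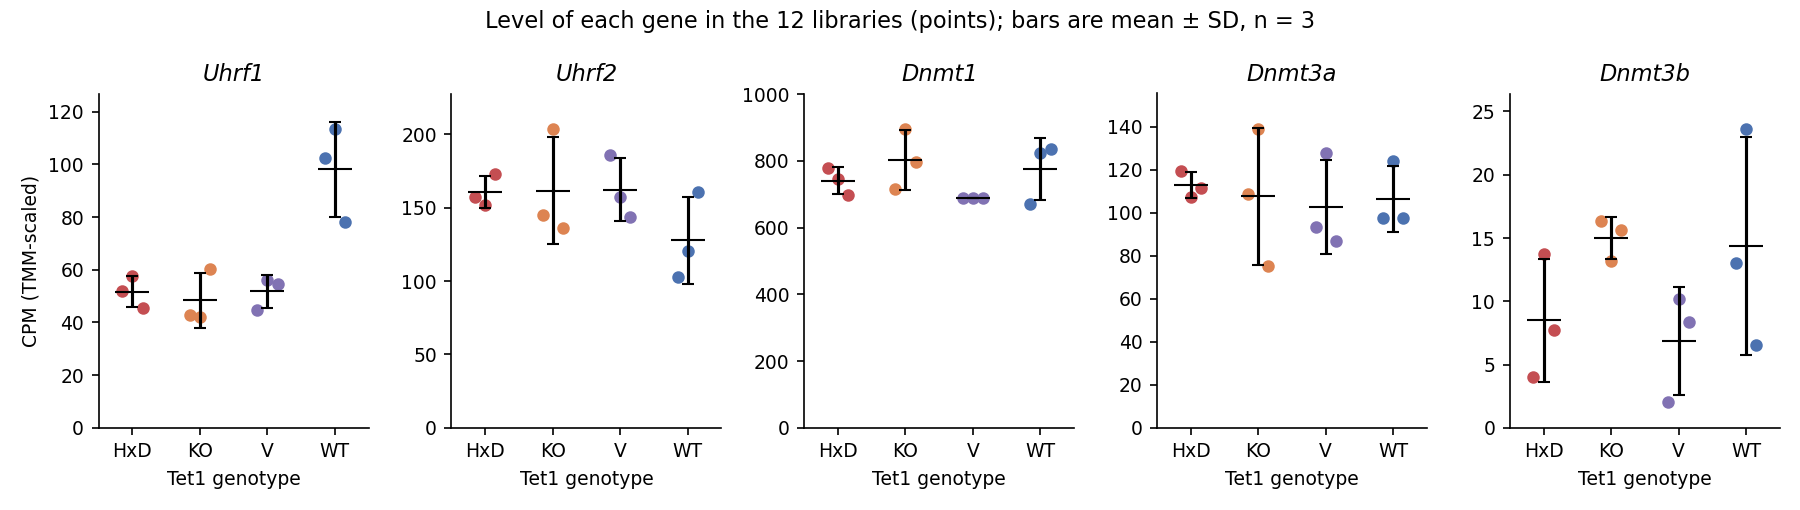
Level of Uhrf1, Uhrf2, Dnmt1, Dnmt3a and Dnmt3b in CPM (y axes, each from 0) in HxD, KO, V and WT (x axes); points are libraries, and bars give the mean ± SD with n = 3. In the Uhrf1 panel the 9 mutant libraries sit between 42.2 and 60.4 CPM and the WT libraries between 78.2 and 113.3 CPM; in the other panels mutants and WT overlap.

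The estimates in the other mutants were of like size but were not called. Uhrf1 averaged 51.7 ± 5.93 CPM in HxD, against 98.1 ± 17.99 CPM in WT (SD, n = 3 each), with a log2 fold change of -0.92 (SE 0.23, 95% interval -1.39 to -0.46, edgeR adjusted p = 0.193). In V it averaged 51.8 ± 6.22 CPM, against the same WT mean, with a log2 fold change of -0.92 (SE 0.23, 95% interval -1.38 to -0.46, edgeR adjusted p = 0.0841). By edgeR, 0 of 5 members were called in HxD or V; at an unadjusted p under 0.05 there was 1 in each, Uhrf1, where 7.25% of all genes in HxD and 9.69% in V were under that p, and DESeq2 called Uhrf1 in both (adjusted p = 0.0352 in HxD and 0.022 in V). Of all genes, edgeR called 0.0247% lower and 0.00619% higher in HxD (0.0309% in all), and 0.0866% lower and 0.068% higher in V (0.155% in all). DESeq2 called 63 of the 16166 genes tested in HxD and 149 in V. By p value in edgeR, Uhrf1 ranked 28th of 16166 genes in HxD and 67th in V. The 3 comparisons share the same WT libraries and are therefore not independent of each other.

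Between the mutants, Uhrf1 gave no difference that passed the test. HxD over KO was 0.09 on the log2 scale (95% interval -0.37 to 0.55), V over KO was 0.10 (-0.36 to 0.56) and V over HxD was 0.00 (-0.46 to 0.46), each with an adjusted p of 1 by edgeR. The intervals reach 0.56 on the log2 scale, so they do not show equal levels. Of the 16166 genes, 0 (0%) were called by edgeR between any pair of mutants. At an unadjusted p under 0.05 there were 514 genes for HxD over KO, 747 for V over KO and 326 for V over HxD, none of them a member; DESeq2 called 27, 19 and 16 genes, again with 0 members.

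Taking the mean of the 3 mutants against WT in the same fit, Uhrf1 fell by 0.95 on the log2 scale (SE 0.17, 95% interval -1.31 to -0.60, edgeR adjusted p = 0.0043). The 9 mutant libraries averaged 50.7 ± 6.94 CPM (SD, n = 9), against 98.1 ± 17.99 CPM in WT (SD, n = 3). In that comparison 0.637% of all genes were called lower and 0.588% higher (1.22% in all), Uhrf1 being the 1 member among them and the 29th gene by p. Without WT2, the WT library with the most Uhrf1, the fall was 0.85 and the adjusted p was 0.0587.

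The KO call depended on single libraries. It was lost without KO1, KO2, WT1 or WT2, at edgeR adjusted p = 0.068, 0.0774, 0.0702 and 0.0898, with the log2 fold change between -0.98 and -0.92. It was also lost when only the KO and WT libraries were fitted (log2 -1.05, edgeR adjusted p = 0.0939). Without WT3 the estimates were -1.06 in HxD, -1.15 in KO and -1.06 in V, and all 3 were called, at edgeR adjusted p = 0.0438, 0.00626 and 0.025. Without HxD1, KO1 and KO3, the 3 libraries with the most undetected genes, the estimates were -0.93 in HxD, -1.24 in KO and -0.92 in V, and all 3 were called (edgeR adjusted p = 0.0463, 0.0208 and 0.00579). HxD then had 2 libraries and KO 1, whose spread was taken from the other groups.

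**Figure D2:**
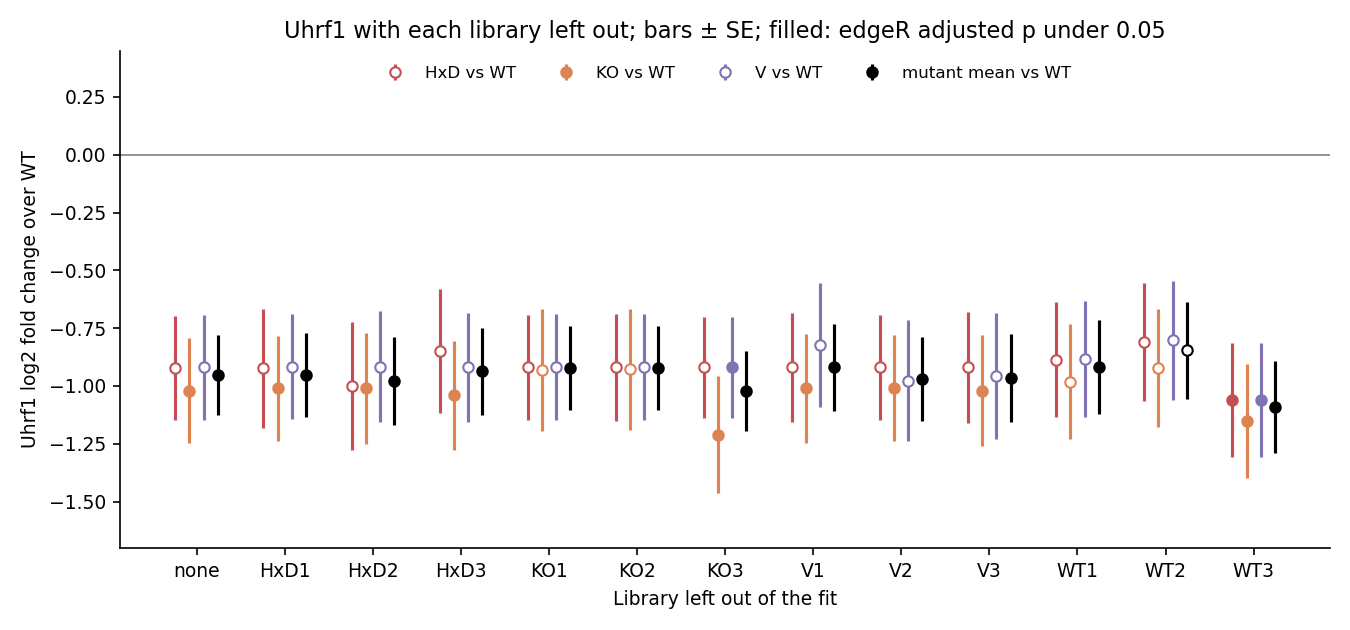
Uhrf1 log2 fold change over WT (y axis) in each of 4 comparisons, with no library or 1 library left out of the fit (x axis); points are edgeR estimates, bars are ± 1 SE, and filled points had an adjusted p under 0.05. The estimates lie between -1.21 and -0.80 in every fit, while the calls change with the library left out.

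RefSeq annotates 2 starts of Uhrf1, and the 250 bases before the second are shown beside those before the single start of Uhrf2, because Uhrf1 is the gene whose level differed and Uhrf2 is its closest relative. Both are plus-strand sequences of GRCm38.p6, with CpG sites, the target of the enzymes studied here, in capitals.
Uhrf1, chr17:56304063-56304312, plus strand: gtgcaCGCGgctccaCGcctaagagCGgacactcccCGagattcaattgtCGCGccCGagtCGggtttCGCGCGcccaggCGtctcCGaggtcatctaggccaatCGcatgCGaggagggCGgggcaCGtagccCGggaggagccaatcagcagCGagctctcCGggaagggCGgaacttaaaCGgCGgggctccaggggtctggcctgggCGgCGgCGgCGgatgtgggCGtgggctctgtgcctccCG
Uhrf2, chr19:30030263-30030512, plus strand: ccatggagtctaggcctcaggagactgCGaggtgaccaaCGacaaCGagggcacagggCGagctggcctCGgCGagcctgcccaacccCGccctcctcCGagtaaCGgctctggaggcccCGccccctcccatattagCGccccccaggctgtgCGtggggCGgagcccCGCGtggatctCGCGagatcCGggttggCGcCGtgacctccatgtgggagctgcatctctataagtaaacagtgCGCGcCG
This Uhrf1 window holds 30 CpG sites and the Uhrf2 window 23, against a median of 6 over 32807 RefSeq promoter windows of the same length. The window before the first Uhrf1 start holds 10. Any of the E2F words TTTCCCGC, TTTCGCGC, TTTGCCGC and TTTGGCGC, read on both strands, occurs 1 time in the Uhrf1 window shown, 185 bases before the start (position -185), and in 1.86% of all windows. Of the other members, Dnmt1 has 1 such match, before the third of its RefSeq starts at position -219, and the windows of Uhrf2, Dnmt3a, Dnmt3b and Dnmt3l have none. The GC box GGGCGG occurs 3 times in each of the windows shown, and in 32.7% of all windows. These matches describe letters only, and no DNA methylation was measured in these libraries.

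Uhrf2 encodes a relative of UHRF1 that also binds modified cytosines but does not replace UHRF1 in maintenance in mouse cells. It was at 157.0, 151.8 and 173.0 CPM in HxD, at 145.0, 203.4 and 136.3 CPM in KO and at 185.9, 157.4 and 143.7 CPM in V, against 103.0, 120.2 and 160.7 CPM in WT. WT1 and WT2 were below all 9 mutant libraries and WT3 was among them, so the groups overlapped. The estimates were 0.33 in HxD, 0.34 in KO and 0.34 in V on the log2 scale (SE 0.20 each, edgeR adjusted p = 0.763, 0.465 and 0.593). The mean of the mutants over WT was 0.34 (95% interval 0.00 to 0.67, edgeR adjusted p = 0.377), which was not called, at an unadjusted p of 0.0491.

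Dnmt1, the maintenance methyltransferase, was the most abundant member. It was at 777.9, 745.7 and 697.5 CPM in HxD, at 715.6, 894.9 and 796.1 CPM in KO and at 689.7, 690.0 and 689.8 CPM in V, against 669.7, 823.6 and 835.8 CPM in WT. Each mutant group overlapped WT, since WT1 was the lowest library of all 12. The log2 fold changes were -0.07 in HxD (95% interval -0.40 to 0.26), 0.05 in KO (-0.28 to 0.37) and -0.17 in V (-0.50 to 0.16), with edgeR adjusted p = 0.999, 0.941 and 0.846. The coefficient of variation of Dnmt1 was 0.0235% over the 3 V libraries, whose total counts ran from 18471158 to 29495313, and 11.9% over the WT libraries. Counting error alone on 12280, 20776 and 19475 counts is larger than that, so the closeness is not read as a trait of V. All 3 V libraries were below all KO libraries and all HxD libraries, and neither difference was called (edgeR adjusted p = 0.976 over KO and 1 over HxD). Over all genes, 4.92% had every V library below every KO library, and 4.57% had every V library below every HxD library.

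**Figure D3:**
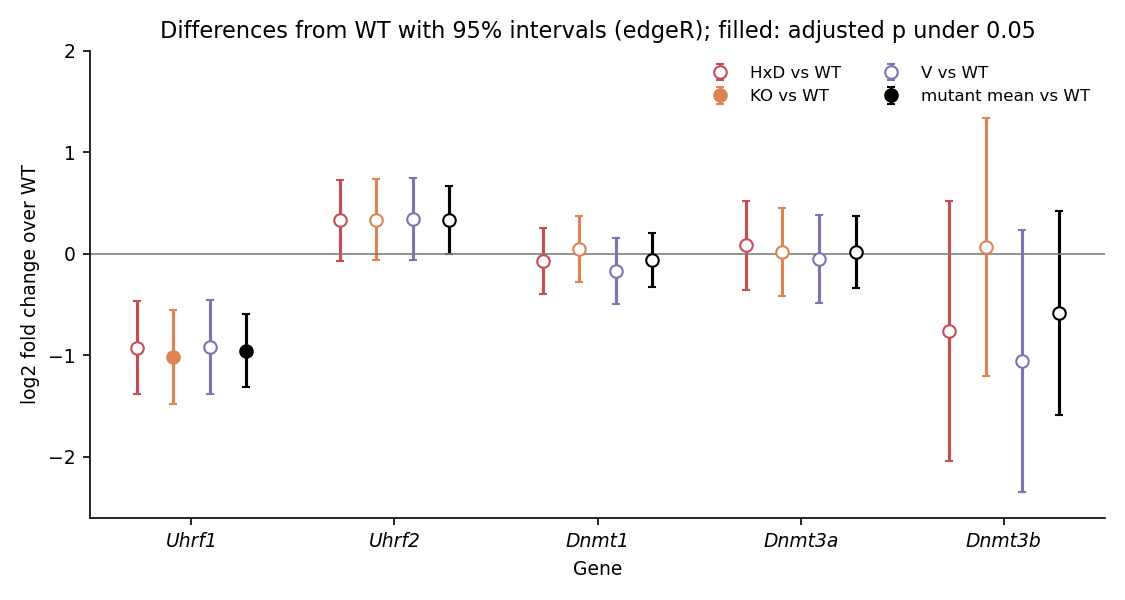
Log2 fold change over WT (y axis) for each gene (x axis) in HxD, KO, V and their mean, with 95% intervals from edgeR; filled points had an adjusted p under 0.05. The Uhrf1 intervals lie below 0 in all 4 comparisons and 2 of its points are filled, while the Dnmt3b interval in KO runs from -1.21 to 1.34.

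Ratios of 2 members within a library do not depend on how libraries are scaled. Uhrf1 counts were 6.70%, 7.71% and 6.54% of Dnmt1 counts in HxD, 5.97%, 4.71% and 7.59% in KO and 6.48%, 8.14% and 7.92% in V, against 15.3%, 13.8% and 9.36% in WT. Every mutant library was below every WT library, with WT3 nearest to them. The mean log2 ratio was -3.88 ± 0.25 in the mutants (SD, n = 9) and -2.99 ± 0.37 in WT (SD, n = 3), a difference of -0.89 (exact permutation test, two-sided, p = 0.00455, adjusted p = 0.0182 over 8 ratio tests). That p is the smallest that 220 arrangements allow. The ratio holds the same Uhrf1 counts that were already lower in every mutant library, so it is no separate evidence. No share over all genes was taken for such ratios. For each mutant alone the difference was -0.85 in HxD, -1.07 in KO and -0.75 in V, and the exact permutation p was 0.1, the smallest that 3 libraries against 3 can give.

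The same was done against Uhrf2, again with the same Uhrf1 counts, so it is likewise no separate evidence. Uhrf1 counts were 33.2%, 37.9% and 26.4% of Uhrf2 counts in HxD, 29.5%, 20.7% and 44.3% in KO and 24.0%, 35.7% and 38.0% in V, against 99.7%, 94.3% and 48.7% in WT. The WT1 and WT2 libraries thus held nearly as many counts of one gene as of the other, while WT3 lay close to KO3. The mean log2 ratio was -1.67 ± 0.36 in the mutants (SD, n = 9) and -0.38 ± 0.58 in WT (SD, n = 3), a difference of -1.30 (exact permutation test, two-sided, p = 0.00455, adjusted p = 0.0182). Across the 12 libraries, log2 levels of Uhrf1 and Uhrf2 had a Pearson r of -0.79, the farthest from 0 among the 10 pairs of the 5 tested members, whose other values ran from -0.51 to 0.40. This is a description over libraries that share genotype groups and a common scaling.

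**Figure D4:**
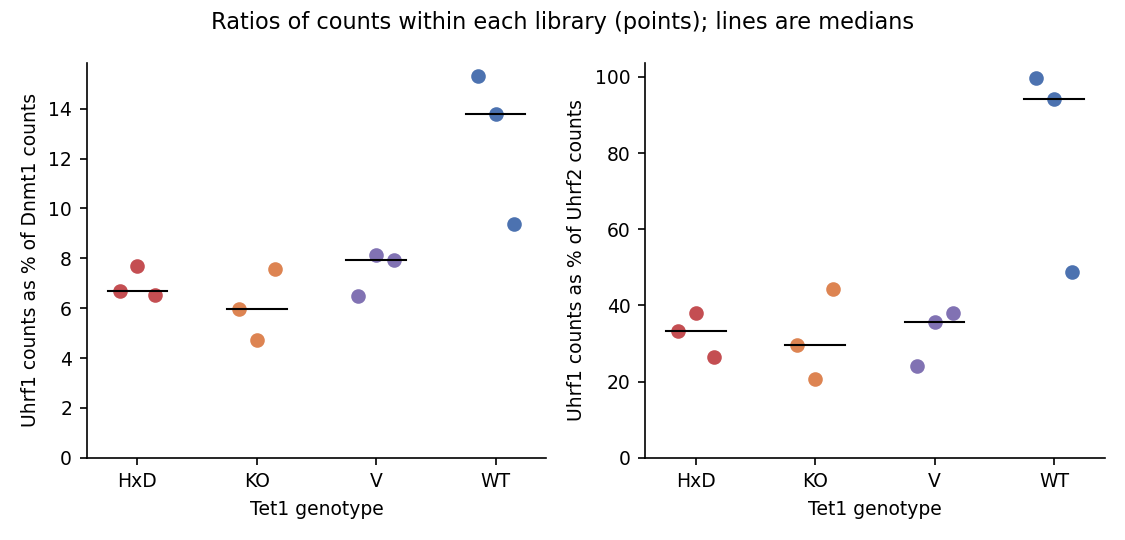
Uhrf1 counts as a percentage of Dnmt1 counts (left) and of Uhrf2 counts (right) in each library (y axes, from 0) of HxD, KO, V and WT (x axes); points are libraries and lines are group medians. The mutant libraries lie at or below 8.14% on the left and at or below 44.3% on the right, and the WT libraries at or above 9.36% and 48.7%.

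Dnmt3a, the main de novo methyltransferase gene expressed here, was at 119.2, 107.4 and 111.4 CPM in HxD, at 108.7, 138.7 and 75.1 CPM in KO and at 93.5, 127.8 and 86.6 CPM in V, against 97.4, 124.2 and 97.6 CPM in WT. The 4 groups overlapped, and KO held both the highest and the lowest library. Its log2 fold changes were 0.08 in HxD (95% interval -0.35 to 0.52), 0.02 in KO (-0.42 to 0.45) and -0.05 in V (-0.49 to 0.38), with edgeR adjusted p = 0.999, 0.988 and 0.988.

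Dnmt3b, the second de novo enzyme, was lower and varied more between replicates. It was at 4.02, 13.7 and 7.72 CPM in HxD, at 16.3, 13.2 and 15.6 CPM in KO and at 2.08, 10.2 and 8.39 CPM in V, against 13.02, 23.6 and 6.53 CPM in WT. Each mutant overlapped WT, whose own libraries spanned most of the range; the coefficient of variation was 57.7% in HxD, 11.0% in KO, 61.9% in V and 59.9% in WT. The estimates were -0.76 in HxD, 0.07 in KO and -1.06 in V on the log2 scale, with SE 0.63, 0.62 and 0.63 and edgeR adjusted p = 0.912, 0.98 and 0.617. All 3 V libraries were below all 3 KO libraries (log2 fold change of V over KO -1.12, 95% interval -2.41 to 0.17, edgeR adjusted p = 0.945), as for 4.92% of all genes.

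Dnmt3l, the non-catalytic partner that appears later in germ cell development, had 9 counts in KO2 (0.373 CPM) and 0 counts in each of the other 11 libraries. A count of 0 allows a level of up to 0.0996 to 0.168 CPM in those libraries, counting error only, so no comparison was made. The germline paralogue Dnmt3c was not analysed here.

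Per kilobase of merged exon (GENCODE M21), Dnmt1 stood highest, at 118.0 ± 6.42 CPM per kb in HxD, 127.0 ± 14.3 in KO, 109.0 ± 0.03 in V and 123.0 ± 14.7 in WT (SD, n = 3 each). Uhrf2 followed at 45.4 ± 3.13 CPM per kb in HxD, 45.7 ± 10.3 in KO, 45.9 ± 6.09 in V and 36.2 ± 8.38 in WT. Uhrf1 was at 14.1 ± 1.62, 13.2 ± 2.83 and 14.1 ± 1.70 CPM per kb in HxD, KO and V, and at 26.7 ± 4.91 in WT. Dnmt3a was at 11.4 ± 0.61, 10.8 ± 3.21 and 10.4 ± 2.23 CPM per kb in HxD, KO and V, and at 10.7 ± 1.56 in WT, so that Uhrf1 and Dnmt3a, neighbours in this order, lay within their replicate spread of each other in KO and V and apart in HxD and WT. In WT, Uhrf1 and Uhrf2 lay within their spread of each other, and in HxD, KO and V they lay apart. Dnmt3b was at 1.96 ± 1.13, 3.48 ± 0.38 and 1.59 ± 0.99 CPM per kb in HxD, KO and V, and at 3.32 ± 1.99 in WT. The order Dnmt1, Uhrf2, Uhrf1, Dnmt3a, Dnmt3b by group mean was the same in HxD, KO, V and WT. These lengths assume that all annotated exons were counted. No other gene of that annotation shares exon bases with a member.

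Genes that act on or with the maintenance step were not called in any comparison by edgeR. Of 10 tested genes of this list, 0 were called in HxD, KO or V against WT. The median log2 fold changes were 0.02, 0.10 and 0.19, against -0.01, -0.02 and 0.00 over all genes tested. Hells, a chromatin remodeller needed for normal DNA methylation, averaged 736.3 ± 80.9 CPM in HxD, 813.5 ± 132.2 in KO and 778.6 ± 86.9 in V, against 1032 ± 118.8 CPM in WT (SD, n = 3 each). Its log2 fold changes were -0.49, -0.34 and -0.41 (edgeR adjusted p = 0.496, 0.38 and 0.43). Hat1, a histone acetyltransferase acting on new histone H4, was at -0.04, 0.23 and 0.25 on the same scale (edgeR adjusted p = 0.999, 0.565 and 0.672). All 3 HxD libraries and all 3 V libraries were below all WT libraries for Hells, which is so for 5.77% and 7.48% of all genes. At an unadjusted p under 0.05 there was 1 gene of this list in HxD (Hells), 0 in KO and 3 in V (Hells, Dppa3 and Pclaf). The shares of all genes were 7.25%, 13.2% and 9.69%, and DESeq2 called 0 of the list in each. Dppa3 is also on the list of germ cell markers. For the mean of the mutants, edgeR called 0 and DESeq2 called 1, Hells (edgeR log2 fold change -0.41, edgeR adjusted p = 0.138). Of all 16166 genes, DESeq2 called 454 there.

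Genes that work with the de novo enzymes, the methyl-CpG-binding domain proteins and other readers, and the suppliers of the methyl donor gave the same count, 0 called by edgeR and 0 by DESeq2 in HxD, KO and V, of 11 de novo partners, 10 readers and 12 donor genes tested. At an unadjusted p under 0.05 there were 0, 0 and 1 de novo partners, 0, 1 and 0 readers, and 0, 3 and 0 donor genes in HxD, KO and V, against 7.25%, 13.2% and 9.69% of all genes. The medians in KO were 0.105, -0.0547 and 0.215 on the log2 scale. Trim28, which silences transposons and protects imprints, was the most abundant de novo partner, with log2 fold changes of 0.16, 0.11 and 0.25 in HxD, KO and V. Nsd2, a histone H3 lysine methyltransferase counted under its older symbol Whsc1, was at 0.16, 0.22 and 0.08. In the reader list, Mbd3, a subunit of the NuRD repressor complex that in mammals does not selectively bind methylated CpG, and Mbd1, which does, were at 0.04 and 0.53 in KO (edgeR adjusted p = 0.954 and 0.212). Mbd1 ranged from 87.5 to 116.3 CPM in HxD, from 92.4 to 135.7 in KO and from 87.7 to 98.7 in V, against 70.4 to 85.1 CPM in WT (n = 3 each). All 9 mutant libraries were above all WT libraries for Mbd1, which is so for 1.79% of all genes. Mat2a, which makes the methyl donor S-adenosylmethionine, was at 0.24, and Mtr, methionine synthase, at 0.35 in KO (edgeR adjusted p = 0.595 and 0.414).

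**Figure D5:**
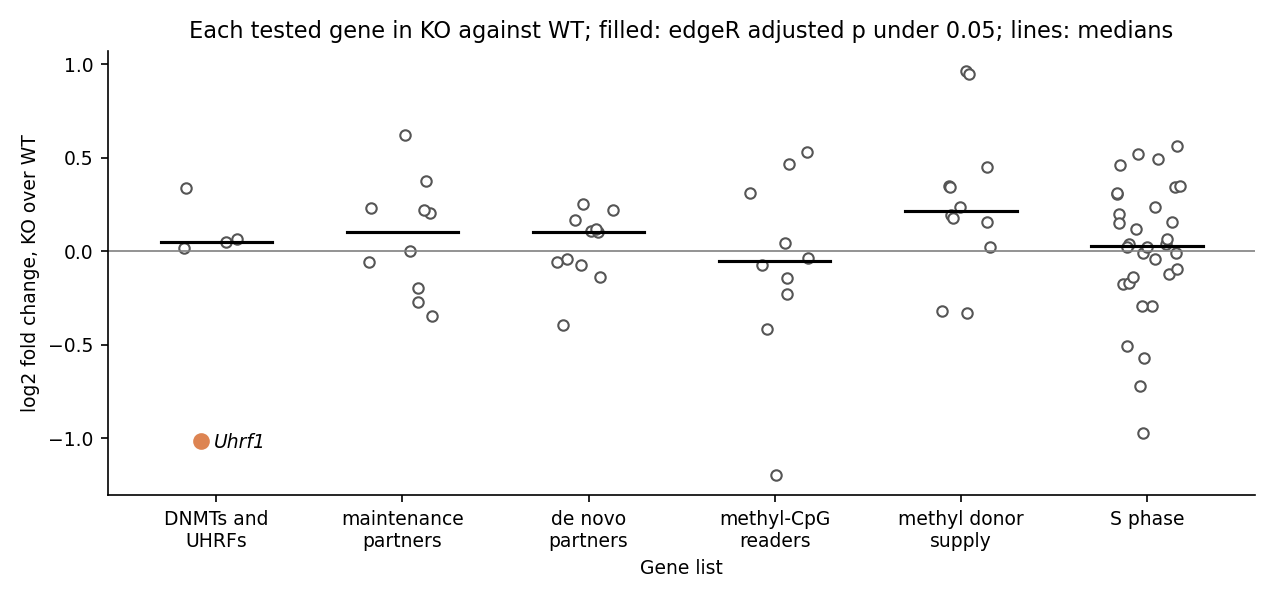
Log2 fold change of KO over WT (y axis) for every tested gene of 6 lists (x axis); points are genes, lines are list medians, and filled points had an edgeR adjusted p under 0.05. Uhrf1 at -1.02 is the filled point, and the list medians lie between -0.0547 and 0.215.

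Uhrf1 is one of the genes known to be transcribed mainly in S phase, so replication genes were examined beside it. Of 32 tested S phase genes, 0 were called by edgeR in HxD, KO or V against WT (5, 4 and 3 at an unadjusted p under 0.05, against 7.25%, 13.2% and 9.69% of all genes; 0, 1 and 0 by DESeq2, the 1 being Rpa2), and their medians were 0.04, 0.03 and 0.12 on the log2 scale. Their summed level ran from 6770 to 7661 CPM in HxD, from 6824 to 7824 in KO and from 7136 to 7666 in V, and from 6534 to 7611 CPM in WT, so the groups overlapped. Mcm6, a subunit of the replicative helicase, was at 0.05, 0.16 and 0.13 on the log2 scale, and Mcm3, another subunit, at 0.05, -0.12 and 0.02. For Rpa2 and Chaf1b, every mutant library was below every WT library, as for 2.05% of all genes. Rpa2 was at 290.2 to 454.3 CPM in the mutants and 492.6 to 599.9 in WT, and Chaf1b at 20.1 to 46.1 and 54.3 to 57.4. For the mean of the mutants, 20 of 32 estimates were above 0 and 12 below. In that comparison 7 had an unadjusted p under 0.05, against 13.2% of all genes. There edgeR called 0 and DESeq2 called 1, Rpa2. Of all 16166 genes, DESeq2 called 454 in that comparison and 487 in KO. Per 1000 counts of S phase genes, Uhrf1 had 6.80, 8.02 and 6.74 counts in HxD, 5.79, 5.39 and 8.86 in KO and 5.83, 7.87 and 7.17 in V, against 15.7, 15.8 and 10.3 in WT. Every mutant library was below every WT library here too, as for the Uhrf1 levels themselves. The same Uhrf1 counts enter this ratio, so it is no separate evidence, and no share over all genes was taken for it. The part of the S phase genes in the Uhrf1 result was not tested.

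Several germ cell markers differed between the mutants and WT. Dazl, an RNA-binding protein of germ cells, averaged 753.2 ± 127.6 CPM in HxD, 719.2 ± 119.7 in KO and 685.7 ± 115.0 in V, against 1598 ± 363.0 CPM in WT (SD, n = 3 each), and was called lower in all 3 (edgeR adjusted p = 0.0197, 0.00217 and 0.00312). Like Uhrf1 it was lowest among WT libraries in WT3, at 1207 CPM, against 1923 in WT1 and 1666 in WT2. Pou5f1, which encodes the Oct4 of the sorting reporter, rose in V by 1.14 on the log2 scale (edgeR adjusted p = 0.0397). Tfap2c, a germ cell specification factor, rose in KO by 1.07 (edgeR adjusted p = 0.0262). Of the 12 germ cell markers, 1 was called lower in HxD, 1 higher and 1 lower in KO, and 1 higher and 1 lower in V, and 10 of the 12 estimates were above 0 in each, with medians of 0.478, 0.596 and 0.431. Over all genes, 0.0309% were called in HxD, 1.22% in KO and 0.155% in V. DESeq2 called 1, 4 and 3 of the markers, beside 63, 487 and 149 of the 16166 genes tested. For the mean of the mutants, edgeR called 3 markers higher (Pou5f1, Tfap2c and Dnd1) and 1 lower (Dazl), where it called 1.22% of all genes. DESeq2 called 6 markers, where it called 454 of the 16166 genes. At an unadjusted p under 0.05 there were 11 of the 12 in that comparison, against 13.2% of all genes. Their summed level was 4095 to 4322 CPM in HxD, 4350 to 4555 in KO and 3792 to 4558 in V, and 4346 to 4439 CPM in WT, with no marker at 0 in any group. Their part in the Uhrf1 result was not tested.

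Markers of other gonadal cells were low in every group. The 12 supporting cell markers summed to 16.3 to 41.4 CPM in HxD, 23.2 to 27.2 in KO and 18.9 to 75.8 in V. In WT they summed to 31.8 to 80.2 CPM. Of their 12 estimates against WT, 10 were below 0 in HxD, 10 in KO and 7 in V. The medians were -0.667, -1.08 and -0.256 on the log2 scale, in that order. The defining marker Foxl2 was at 0 in WT and at most 3.31 CPM in any library. It was the 1 marker of this list at 0 in every WT library. The 2 most abundant, Irx3 and Kitl, had counts in each WT library. Irx3 was at 26.69, 17.92 and 19.84 CPM in WT. In the mutants Irx3 ran from 7.013 to 19.1 CPM in HxD, 8.364 to 14.04 in KO and 10.73 to 25.55 in V. Kitl was at 9.791, 1.501 and 5.258 CPM in WT. In the mutants Kitl ran from 0 to 6.238 CPM in HxD, 0 to 2.069 in KO and 0.5314 to 11.29 in V. The 10 interstitial markers summed to 4.79 to 17.3 CPM in HxD, 3.13 to 16.4 in KO and 7.16 to 16.7 in V, and to 3.19 to 6.89 CPM in WT, where Nr2f2, Dcn, Lum and Tcf21 were at 0. The 9 blood markers summed to 2.75 to 10.7 CPM in HxD, 0.911 to 34.3 in KO and 0 to 5.67 in V, and to 3.15 to 26.1 CPM in WT, where Hbb-y and Ptprc were at 0. The 7 endothelial markers summed to 158.8 to 205.2 CPM in HxD, 192.2 to 264.7 in KO and 153.2 to 251.8 in V, and to 108.1 to 233.3 CPM in WT, most of it Pecam1, which mouse germ cells also express, and Emcn was at 0 in HxD, KO, V and WT. Of the 25 tested genes of these 4 lists, edgeR called 0 against WT, 0 had an unadjusted p under 0.05 and DESeq2 called 0. Their part in the Uhrf1 result was not tested.

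Over 10021 genes compared, each averaging 5 CPM or more, those most like Uhrf1 over the 12 libraries were Sohlh2, a germ cell transcription factor (Pearson r = 0.94 of log2 CPM), Fbxw8, a subunit of a ubiquitin ligase (0.93), and Exd2, an exonuclease (0.92). Sohlh2 was at 184.9, 196.5 and 186.9 CPM in HxD, at 183.6, 176.1 and 203.9 in KO and at 168.4, 180.5 and 206.5 in V, against 245.6, 286.0 and 258.2 CPM in WT. Sohlh2 was picked for its likeness to Uhrf1 over these same libraries, so its pattern is no separate evidence. Of the genes compared, 0.758% had an r over 0.8 with Uhrf1 over the 12 libraries, and 3.03% without HxD1, KO1 and KO3. Most like Uhrf2 were Ago1 (0.94), Pabpc1 (0.93) and Pgm1 (0.92). Most like Dnmt1 were Prtg (0.90), Vps13c (0.89) and Myh10 (0.89), most like Dnmt3a were Cds2 (0.92), Snrnp200 (0.90) and Nsf (0.88), and most like Dnmt3b were Mto1 (0.90), Tesk1 (0.87) and Abca2 (0.86). With those 3 libraries left out, r of these 15 pairs lay between 0.84 and 0.96, but another gene headed the list of each of the 5 members. The libraries share genotype groups and scaling, so these are descriptions with no test.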

How the data were processed

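Expression was measured by RNA sequencing in 12 libraries, grouped by the sample titles. Per the labels' protocols, total RNA came from a fixed number of sorted cells, with oligo d(T) selection of mRNA before an NEB library kit. The authors deposited raw counts per gene, with no normalization. The submitters' processing notes name featureCounts 2.0.3, SAMtools 1.9, STAR 2.7.10b and Trim Galore 0.6.7, and the builds GRCm39 and mm10 with no role. The annotation, the strand setting and the handling of multi-mapping reads are unstated in these sources, so sense and antisense reads cannot be told apart.

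The counts were tested with edgeR 4.0.16 in R 4.3.3 (quasi-likelihood F test, two-sided, TMM scaling, filterByExpr, group as the only term, all 12 libraries), with Benjamini-Hochberg adjustment over the 16166 genes kept and calls at an adjusted p under 0.05. Each SE was taken as the size of the estimate over the root of F. CPM values use TMM-scaled library sizes. Log2 CPM adds 0.5 counts, and ratios add 1 count. Alternatives used DESeq2 1.42.0, limma-voom (limma 3.58.1), other filters, other scaling and fewer libraries, and the tests were checked on simulated data. In simulated counts for KO against WT, 42 of 100 genes changed by 1 on the log2 scale were recovered, and 81 of 100 changed by 2. A gene that was not called may therefore still differ by 1 on the log2 scale. Replicates differed by more than sampling noise (lowest chi-square 29.9 for each degree of freedom). Reads carry no molecular identifiers, so floors of 3 counts cover counting error only.

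The members and gene lists were chosen with earlier results of these data known. Named genes are the members, the called and the 2 most abundant genes of a list, and the 3 genes most like each member. Dnd1, Dppa3, Pclaf, Rpa2, Chaf1b, Foxl2 and the markers at 0 were named after their values were seen. Pclaf, Nsd2 and Nsd3 were matched through RefSeq synonyms, and promoters come from RefSeq (GRCm38.p6).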

Additional observations from a re-analysis of the deposited data

How the results depend on the processing

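The differences of Uhrf1 from WT stayed below 0 in all 79 estimates over the alternatives tried, from -1.24 to -0.80 on the log2 scale, but its calls moved. The number of members called in KO was 1, and it was 0 with only the KO and WT libraries fitted and 0 to 1 with each library left out in turn. In HxD and in V it was 0, and it was 1 by DESeq2, 1 without a filter on low counts and 1 without the set of HxD1, KO1 and KO3, Uhrf1 being the gene each time; with single libraries left out it was 0 to 1. For the mean of the mutants it was 1, and 0 to 1 with single libraries left out. The adjusted p of Uhrf1 ranged, over the edgeR, DESeq2 and limma-voom fits, from 0.0352 to 0.489 in HxD, 0.00287 to 0.0939 in KO, 0.00579 to 0.463 in V and 4.36e-05 to 0.0587 for the mean. The mean difference in the Uhrf1 to Dnmt1 ratio ran from -1.10 to -0.74 and that to Uhrf2 from -1.63 to -1.11 with single libraries left out; without any 1 WT library the adjusted p was 0.0727, since fewer arrangements are then possible. Of 616 estimates for the other comparisons of members, 0 were called and 52 changed sign, 50 of them where the estimate was within 0.2 of 0; none of these had a called direction.

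Counts over all genes moved more: 5, 197, 25 and 198 genes were called in HxD, KO, V and the mean against WT by edgeR, 63, 487, 149 and 454 by DESeq2, and between 1 and 121, 26 and 487, 3 and 383, and 47 and 663 over all alternatives. With DESeq2 size factors in edgeR, the KO calls split into 90 higher and 95 lower, against 117 higher and 80 lower with TMM, and Uhrf1 stayed called lower (adjusted p = 0.0192). The labels do not say whether a replicate number marks a shared litter or day. Deviations of same-numbered libraries had a median correlation of 0.00156 over 18 pairs, none over 0.1. For libraries with different numbers the median was -0.00736 over 36 pairs, 4 of them over 0.1. With 3 libraries a group, these correlations cannot decide whether the numbers pair the libraries. With the replicate block, Uhrf1 was at -0.92, -1.01, -0.92 and -0.95 in the same order, with edgeR adjusted p of 0.156, 0.0165, 0.0692 and 0.00255, and no member's call changed, while 22, 285, 73 and 250 of all genes were called. Counts were too few to compare Dnmt3l, and the spread between libraries limits Dnmt3b.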
